A study of Mus musculus with 70 samples.

Results

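The comparison set 2 exercise schedules that let mice learn from a very brief training against 2 schedules that did not. In object location memory (OLM), a mouse learns where objects stand, and a very short acquisition leaves a sedentary mouse without lasting memory. Each schedule is named by its days of initial voluntary wheel running, of sedentary delay without a wheel and of reactivating exercise. The memory-enabling schedules were 14-0-0 and 14-7-2, and the ineffective ones were 14-14-0 and 0-0-2. The members are the 40 dorsal hippocampus libraries of these schedules, 10 in each, out of 70 in the series. They were chosen by their schedule. All came from adult male C57BL/6J mice that were housed singly and had the short acquisition an hour before the tissue was taken. Each schedule had 5 libraries from each of 2 harvest cohorts, collected on separate days. The question asked of them is which transcripts were at another level during memory consolidation when exercise had made the short training effective.

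The classes differ in more than memory. The mice of 14-0-0, 14-7-2 and 0-0-2 had a wheel until the night before training and those of 14-14-0 did not. The mice of 0-0-2 ran for 2 days in all. Days run and time since the last run cannot be told apart from the schedule, and memory was scored by schedule, not in these libraries. Of the 30 other libraries, home cage, sedentary and 14-7-0 mice, none entered the contrast.

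Running raises neurotrophins in the hippocampus, and new memories are stabilised by a wave of transcription and translation in the hours after training. Members of the TGF-beta family signal through pairs of type I and type II serine/threonine kinase receptors at the cell surface. The type I receptor then phosphorylates SMAD proteins, which enter the nucleus and act on transcription. ACVR1C (ALK7) is a type I receptor of this family that binds activins, GDFs and Nodal. The study singled out Acvr1c from these same libraries and has Bdnf on the same list of up-regulated genes, so the levels and p-values of both are a description here and no independent evidence.

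Expression was measured as FPKM, fragments scaled for transcript length and library size, and compared as log2(FPKM + 0.1). Every difference below is a mean log2 value of the 20 memory-enabling libraries minus that of the 20 ineffective ones, with its standard error, from a moderated test in limma (two-sided). A gene was called when its unadjusted p was under 0.05 and its difference had the same sign in each of the 4 pairwise contrasts of one memory-enabling with one ineffective schedule.

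The markers of the hippocampus were present in every library. Prox1, a transcription factor of dentate granule cells, ranged from 9.70 to 36.8 FPKM, Fibcd1, a CA1 marker, from 15.4 to 56.8 FPKM, and Cpne4, a CA3 marker, from 31.0 to 80.3 FPKM. Relative depth, judged from genes of very low FPKM, ranged from 0.517 to 2.31 times that of 14-0-0 replicate 0. Choroid plexus came along in some dissections: Ttr, which its epithelium makes, had a median of 2225 FPKM in 14-0-0 and 2040 FPKM in 14-14-0, against 79.2 FPKM in 14-7-2 and 99.2 FPKM in 0-0-2, so that 1 schedule of each class was high. None of the 23 choroid plexus markers tested was called. With 1 schedule of each class high, such markers were unlikely to keep one sign in all 4 pairs. The absence of calls therefore does not show that choroid plexus had no part in the differences. A score over 9 thalamus markers exceeded 1 in 14-7-2 replicate 3 (1.93), 14-14-0 replicate 3 (1.09) and 0-0-2 replicate 4 (1.05), and 14-14-0 replicate 3 also had the lowest CA1 score (-0.90) and the lowest dentate score (-0.82) of its schedule. Results are therefore also given without these 3 libraries, a choice made after their values were seen.

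**Figure D1:**
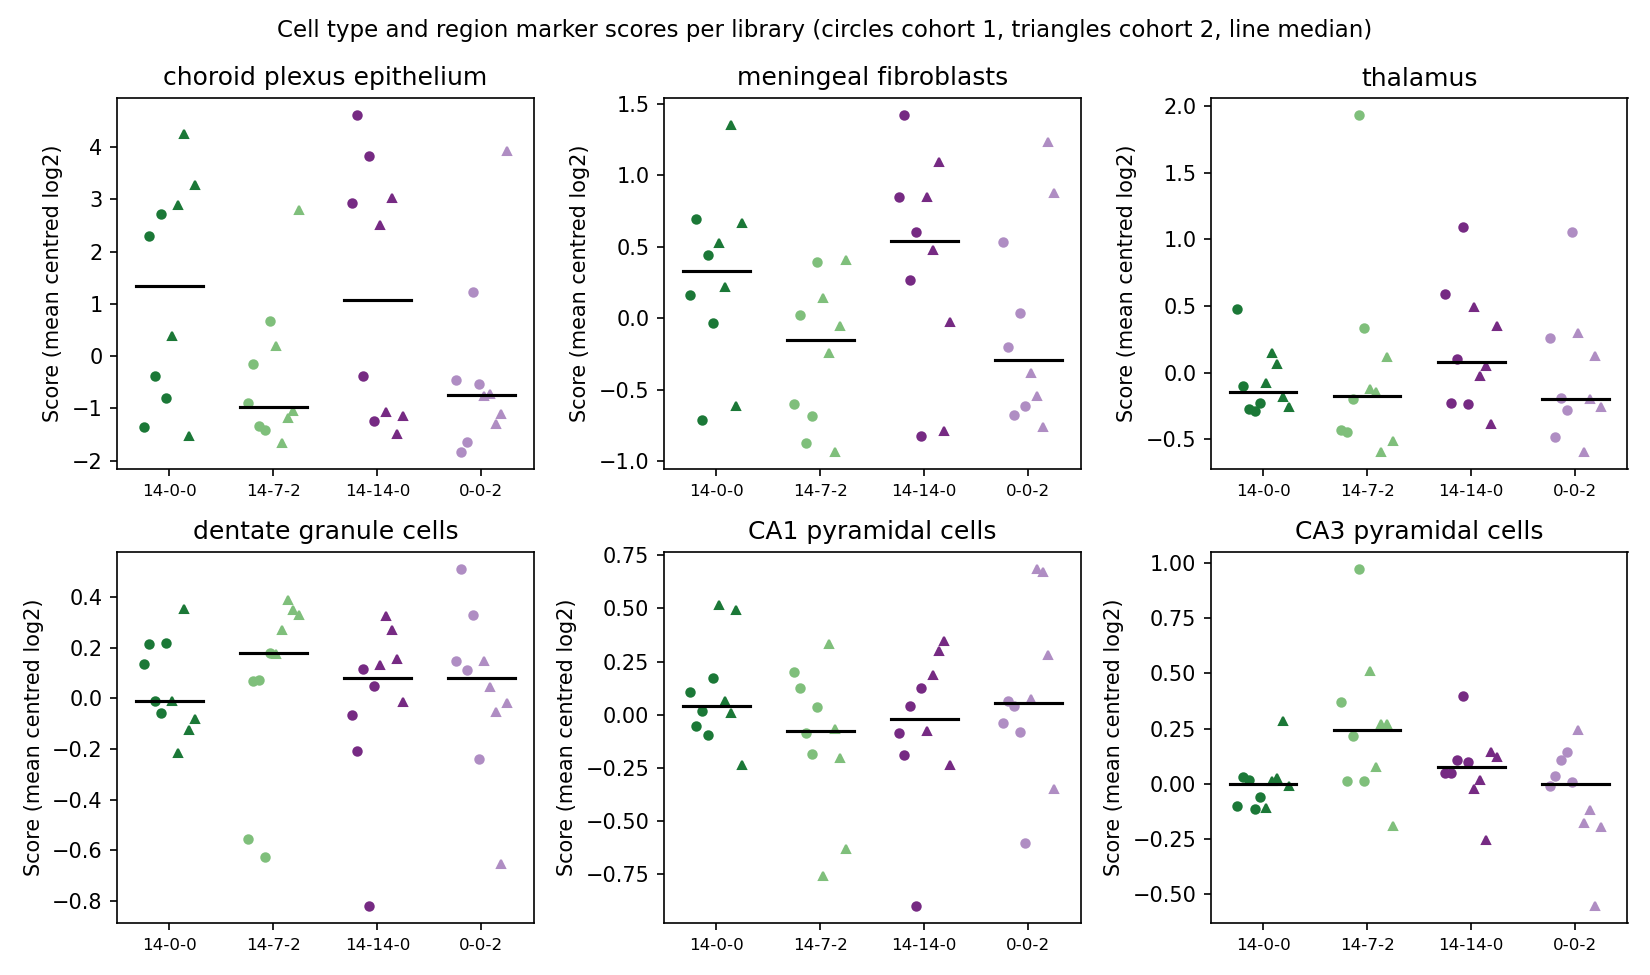
Marker scores of 6 cell types or regions in each library (y axis, log2 values centred on each gene's own average and averaged over the list) by schedule (x axis), with circles for cohort 1, triangles for cohort 2 and a line at the median. Choroid plexus scores were high in several libraries of 14-0-0 and 14-14-0, and 1 library in each of 14-7-2, 14-14-0 and 0-0-2 stands above 1 on the thalamus score.

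Differences between the classes were small. Of 12994 genes tested, 404 were called higher in the memory-enabling schedules, 3.11% of those tested, and 132 were called lower, 1.02%. The median difference was 0.12 among the genes called higher and -0.18 among those called lower, on the log2 scale, against 0.0032 over all genes tested. Before the requirement on the pairs, 576 genes, 4.43%, had a p under 0.05, 435 higher and 141 lower. The threshold alone passes 5% of genes, or 649.7, when nothing differs. The smallest adjusted p (Benjamini-Hochberg over all genes tested) was 0.50, and no gene had one under 0.05 in limma. The Cyber-T test gave 1 such gene on log2 values, Snora28 (adjusted p = 0.0275), and 0 on FPKM. Ignoring p, 2377 genes were higher and 1779 lower in all 4 pairwise contrasts, together 32% of genes.

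These counts depended on a few libraries. Without the 3 libraries of high thalamus score, 260 genes were called higher and 78 lower, of which 220 and 56 were also called with all 40 libraries. Scaling each library by its median ratio to the mean profile moved the share of called genes that were higher from 75.4% to 63.2%, with 308 higher and 179 lower. Leaving out 0-0-2 replicate 4 alone gave 87 lower genes, and leaving out 14-0-0 replicate 5 alone gave 606 higher genes.

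Acvr1c, on chromosome 2 at 58267453 to 58357896 (GRCm38), was higher after both memory-enabling schedules. Its FPKM ranged from 3.30 over a median of 4.76 to 6.37 in 14-0-0 and from 3.91 over 4.88 to 5.90 in 14-7-2. In 14-14-0 it ranged from 2.08 over 3.64 to 4.59, and in 0-0-2 from 2.93 over 4.31 to 5.30. Of the 10 libraries of 14-14-0, 7 were below the lowest of 14-7-2, whereas the libraries of 0-0-2 overlapped with both memory-enabling schedules. Of the 20 memory-enabling libraries, 19 were above the median of the ineffective ones.

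The pooled difference of Acvr1c was 0.32 ± 0.087 (SE, n = 20 and 20; p = 0.00059, adjusted p = 1), and a permutation test of this value gave p = 0.00073. The means were 4.85 ± 0.839 FPKM and 3.88 ± 0.801 FPKM (SD, n = 20 each). Against 14-14-0 the difference was 0.42 for 14-0-0 and 0.42 for 14-7-2. Against 0-0-2 it was 0.22 (p = 0.086) and 0.23 (p = 0.057), so the contrasts with 0-0-2 did not pass on their own. The lowest value came from 14-14-0 replicate 3. Without the 3 libraries of high thalamus score the difference was 0.28 (p = 0.0010).

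Of 12 receptors of the family tested, Acvr1 (ALK2), a type I receptor for BMPs and activins, was the only other one called, with 0.12 ± 0.043 (p = 0.0090), and both calls held without the 3 libraries. Its medians were 19.3 FPKM in 14-0-0 and 19.8 FPKM in 14-7-2 against 18.3 FPKM in 14-14-0 and 17.9 FPKM in 0-0-2, with overlapping ranges. Acvr1b (ALK4), another type I receptor for activins, differed by 0.027 ± 0.050 (p = 0.60), and its sign changed among the pairs. The type II receptors Acvr2a (-0.018), Bmpr2 (0.00072) and Tgfbr2 (-0.086) were not called, nor were Tgfbr1 (-0.056), Bmpr1a (0.0054), Bmpr1b (-0.044), Acvrl1 (-0.089) and the co-receptors Tgfbr3 (-0.14) and Eng (-0.14). Of the 12 receptors 2 were called higher, against 3.11% of all genes, and the median over them was -0.031.

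Among 22 ligands and antagonists tested, 1 was called in each direction, against 3.11% higher and 1.02% lower of all genes. Their median difference was -0.032. Bambi, a pseudoreceptor without a kinase that blocks type I receptors, was higher by 0.24 ± 0.10 (p = 0.018). Its medians were 2.14 FPKM in 14-0-0 and 2.23 FPKM in 14-7-2 against 1.84 FPKM in 14-14-0 and 1.96 FPKM in 0-0-2. Inhbb, which encodes the subunit of activin B, differed by -0.31 ± 0.10 (p = 0.0051). Its FPKM ranged from 0.973 over 1.23 to 1.38 in 14-0-0 and from 0.692 over 1.24 to 1.83 in 14-7-2. It ranged from 1.19 over 1.57 to 2.43 in 14-14-0 and from 0.743 over 1.38 to 2.11 in 0-0-2, and the difference was -0.44 and -0.41 against 14-14-0 but -0.20 (p = 0.13) and -0.17 (p = 0.33) against 0-0-2. None of the 17 SMADs and SMAD targets tested was called (median -0.038).

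Bdnf, the neurotrophin best known for its rise with running, lies on chromosome 2 at 109674700 to 109727043. It ranged from 18.7 over a median of 22.6 to 30.8 FPKM in 14-0-0 and from 19.6 over 21.1 to 25.7 FPKM in 14-7-2. In 14-14-0 it ranged from 12.4 over 18.2 to 20.1 FPKM. The 0-0-2 libraries spread from 10.7 over 21.2 to 30.1 FPKM, from below the lowest 14-14-0 library to above every 14-7-2 library. The pooled difference was 0.27 ± 0.087 (p = 0.0031, adjusted p = 1; permutation p = 0.0032). It was 0.42 (p = 0.00032) and 0.30 (p = 0.00037) against 14-14-0, but 0.24 (p = 0.12) and 0.13 (p = 0.37) against 0-0-2. With 14-14-0 left out altogether, Bdnf differed by 0.19 (p = 0.11). Of the 11 neurotrophins and receptors tested, Gfra1, a GDNF co-receptor, was the only other gene called (-0.20 ± 0.096, p = 0.043). Of all genes, 3.11% were called higher and 1.02% lower. Gfra1 reached 32.7 FPKM in 0-0-2 replicate 4 and 21.2 FPKM in 0-0-2 replicate 8, against medians of 11.7 to 13.5 FPKM, and without the 3 libraries its difference was -0.11 (p = 0.17).

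**Figure D2:**
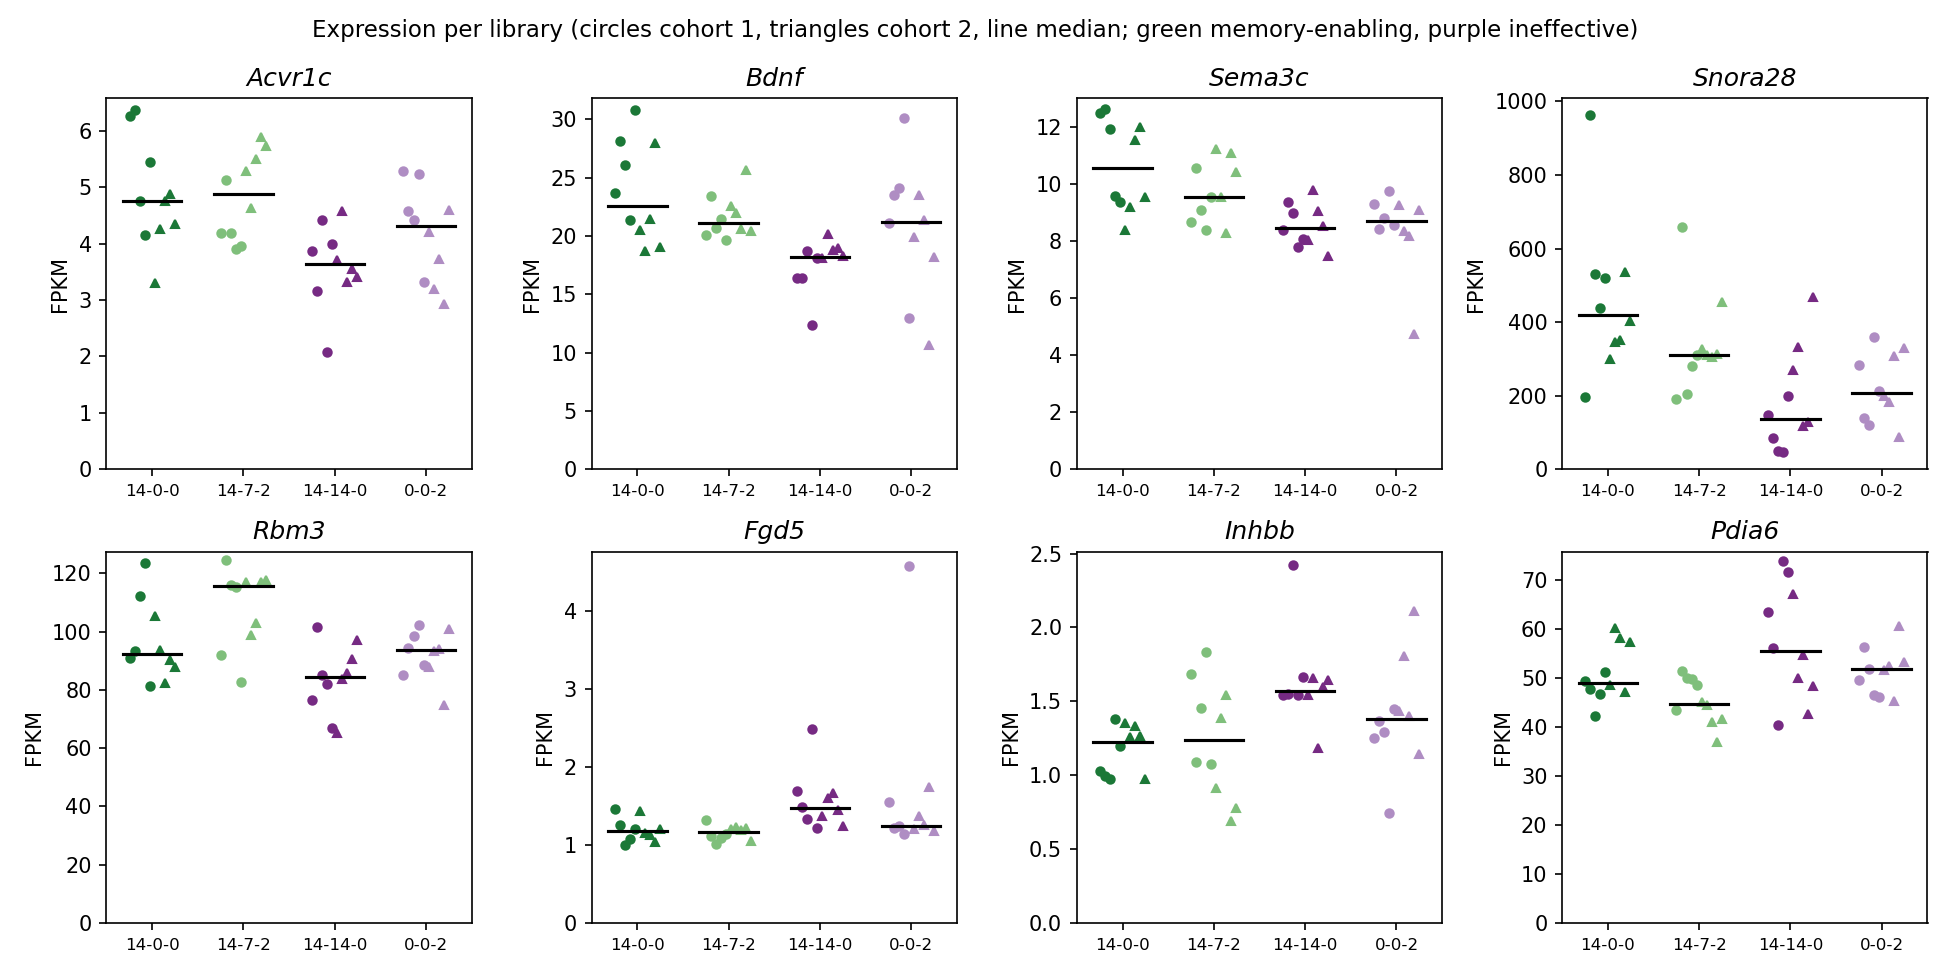
FPKM (y axis, from 0) of 8 genes in each library by schedule (x axis), with circles for cohort 1, triangles for cohort 2 and a line at the median. The classes (green memory-enabling, purple ineffective) overlap in every panel, and the medians of Bdnf in 14-7-2 (21.1) and of Rbm3 in 14-0-0 (92.2) lie just below those of 0-0-2 (21.2 and 93.7).

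The gene of smallest p was Snora28, an H/ACA small nucleolar RNA, a class of short RNAs that guide the conversion of uridine to pseudouridine in other RNAs. It was the one gene with p under 0.05 in all 4 pairwise contrasts (0.00048 and 0.0052 against 14-14-0, 0.00085 and 0.020 against 0-0-2). Its FPKM ranged from 197 over 420 to 963 in 14-0-0 and from 192 over 310 to 658 in 14-7-2. In 14-14-0 it ranged from 46.4 over 138 to 469 and in 0-0-2 from 87.3 over 207 to 359. All 20 memory-enabling libraries were above the median of the ineffective ones, and the pooled difference was 1.1 ± 0.24 (p = 3.85e-05, adjusted p = 0.50).

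Snora52, of the same class, was called in the opposite direction. It was listed at 0 in 6 of 10 libraries of 14-0-0 and 5 of 14-7-2, against 1 of 14-14-0 and 2 of 0-0-2. The difference of -3.22 ± 1.1 (p = 0.0052) depends on the pseudocount and was -1.91 with a pseudocount of 1. Both sequences, from GENCODE M21 on GRCm38, are shown because these are the transcripts of largest difference in the leading sets. The libraries were made from RNA selected by its poly-A tail, which most small nucleolar RNAs lack. Snora28 is at chr12:111540941-111541067 and Snora52 at chr7:141448803-141448939, both on the plus strand, with the last ACA before the 3′ end in capitals.
Snora28: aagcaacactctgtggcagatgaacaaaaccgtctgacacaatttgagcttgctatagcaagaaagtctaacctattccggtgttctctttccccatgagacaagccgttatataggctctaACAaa
Snora52: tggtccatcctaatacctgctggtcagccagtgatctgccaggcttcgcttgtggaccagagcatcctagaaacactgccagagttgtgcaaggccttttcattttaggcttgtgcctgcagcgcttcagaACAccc

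Snora28 is 127 bases long and lies inside Eif5, the gene of a translation initiation factor. No exon of the 7 protein-coding Eif5 transcripts covers it, but 2 retained-intron transcripts do, and reads of those cannot be told apart from Snora28. Eif5 itself differed by 0.053 ± 0.042 (p = 0.22). Snora52, of 137 bases, lies inside Rplp2, a ribosomal protein gene, between the exons of its 3 protein-coding transcripts and within 1 retained-intron transcript. Rplp2 differed by -0.17 ± 0.25 (p = 0.49), and its own FPKM ranged from 72.5 to 582 among the memory-enabling libraries.

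Of 9 genes called higher by at least 0.5 on the log2 scale, Snora28, Snora81, Snora41, Snord22, Scarna3a, Rmrp and Mir3473g encode small RNAs, and the others were Mylk3 (0.66), a cardiac myosin light chain kinase, and Otos (0.61). Snora41, Scarna3a and Mir3473g were listed at 0 in 29, 33 and 34 of the 40 libraries, so their differences depend on the pseudocount. Small RNAs were 0.823% of the tested genes with a RefSeq biotype, a share over differences of every size. It takes no account of the choice by size, so no enrichment is drawn from it. The 9 genes called lower by as much were Snora52 and the protein-coding genes Dlk1 (-1.09), Baiap3 (-0.78), Ecel1 (-0.64), Hs3st2 (-0.61), Spp1 (-0.54), Atp2b4 (-0.53), Gpc3 (-0.53) and Dlx6 (-0.51). All of these protein-coding genes except Spp1 were highest in 0-0-2 replicate 4, for example Dlk1 with 17.3 FPKM against a median of 0.257 FPKM over the 40 libraries. Without the 3 libraries of high thalamus score, none of these 8 protein-coding genes had a p under 0.05 (0.051 to 0.12). These genes were named for their size after their values were seen.

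Sema3c encodes a secreted semaphorin that guides axons. Its FPKM ranged from 8.40 over 10.6 to 12.6 in 14-0-0 and from 8.30 over 9.56 to 11.2 in 14-7-2. The ineffective schedules ranged from 7.48 over 8.45 to 9.80 in 14-14-0 and from 4.74 over 8.69 to 9.75 in 0-0-2. The pooled difference was 0.26 ± 0.065 (p = 0.00027), and 3 of the 4 pairs passed on their own, with 0.31, 0.18 and 0.34, the fourth being 0.21 (p = 0.0525, 14-7-2 against 0-0-2).

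Napb, the neuronal beta-SNAP that helps disassemble SNARE complexes after vesicle fusion, had medians of 183 FPKM in 14-0-0 and 177 FPKM in 14-7-2 against 155 FPKM in 14-14-0 and 171 FPKM in 0-0-2 (0.15 ± 0.036, p = 0.0002). Tac2, which encodes the neuropeptide neurokinin B, was higher by 0.47 ± 0.13 (p = 0.0011). Its libraries of 14-0-0 lay between 5.37 and 7.70 FPKM, while the other schedules had medians of 3.74 to 4.40 FPKM, and 14-7-2 did not pass against 0-0-2 (0.083, p = 0.66). Rbm3, a cold-inducible RNA-binding protein, was higher by 0.22 ± 0.062 (p = 0.0010), with the highest median, 115.6 FPKM, in 14-7-2 and the lowest, 84.4 FPKM, in 14-14-0. Its median in 14-0-0, 92.2 FPKM, was below that of 0-0-2, 93.7 FPKM, and these schedules did not differ past the threshold (p = 0.45).

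Hkdc1, a hexokinase domain protein, differed by 0.31 ± 0.083 (p = 0.00059), with medians of 1.45 FPKM in 14-0-0 and 1.40 FPKM in each of 14-7-2 and 0-0-2, against 1.03 FPKM in 14-14-0. Olfm4, a secreted glycoprotein, differed by 0.38 ± 0.10 (p = 0.00071), and more against 14-14-0 (0.50 and 0.64) than against 0-0-2 (0.11 and 0.25). Tpm1, an actin-binding tropomyosin, Sprn, a prion-related protein of neurons, Diras2, a small GTPase, and Slc35f3, a transporter, differed by 0.11 to 0.14, at schedule means from 19.9 FPKM (Slc35f3) to 119.8 FPKM (Tpm1), with p from 0.00072 to 0.001. The classes overlapped for each: Diras2 ranged from 84.6 to 111.4 FPKM in 14-0-0 and from 78.7 to 102.2 FPKM in 14-14-0.

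The leading lower genes included Fgd5, an exchange factor for Cdc42 in endothelium, which differed by -0.34 ± 0.10 (p = 0.0021). Its FPKM lay between 0.994 and 1.47 in 14-0-0 and between 1.01 and 1.32 in 14-7-2, against medians of 1.47 in 14-14-0 and 1.25 in 0-0-2. The 0-0-2 replicate 4 library stood at 4.58 FPKM, and without the 3 libraries the difference was -0.21 with a smaller p (0.00083). Flt1, the VEGF receptor 1 gene of endothelium, was the one endothelial or pericyte marker called of 14 (-0.12 ± 0.044, p = 0.010). Of all genes, 1.02% were called lower. The median over the 14 markers was -0.065.

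Grik3, a kainate receptor subunit (-0.33 ± 0.11, p = 0.0039), Zdbf2, an imprinted gene (-0.37 ± 0.12, p = 0.0035), and Chrm5, a muscarinic acetylcholine receptor (-0.29 ± 0.10, p = 0.0075), were also lower. Grik3 reached 14.6 FPKM and Zdbf2 5.50 FPKM in 0-0-2 replicate 4, and without the 3 libraries the differences were -0.22 (p = 0.018) and -0.24 (p = 0.0074). Nos1, the neuronal nitric oxide synthase of a set of interneurons, had medians of 8.92 FPKM in 14-0-0 and 8.79 FPKM in 14-7-2 against 11.2 FPKM in 14-14-0. The median of 0-0-2, 8.92 FPKM, lay with those of the memory-enabling schedules, and the pooled difference was -0.20 ± 0.067 (p = 0.0053). The remaining leading lower genes were Exosc10, a nuclease of the RNA exosome (-0.080), Lyn, a Src-family kinase (-0.14), Frmd6, a FERM-domain protein upstream of Hippo signalling (-0.12), Rhbdl3, a rhomboid family protein (-0.20), and Pcgf5, a Polycomb ring finger protein (-0.16), with p from 0.0034 to 0.0083.

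**Figure D3:**
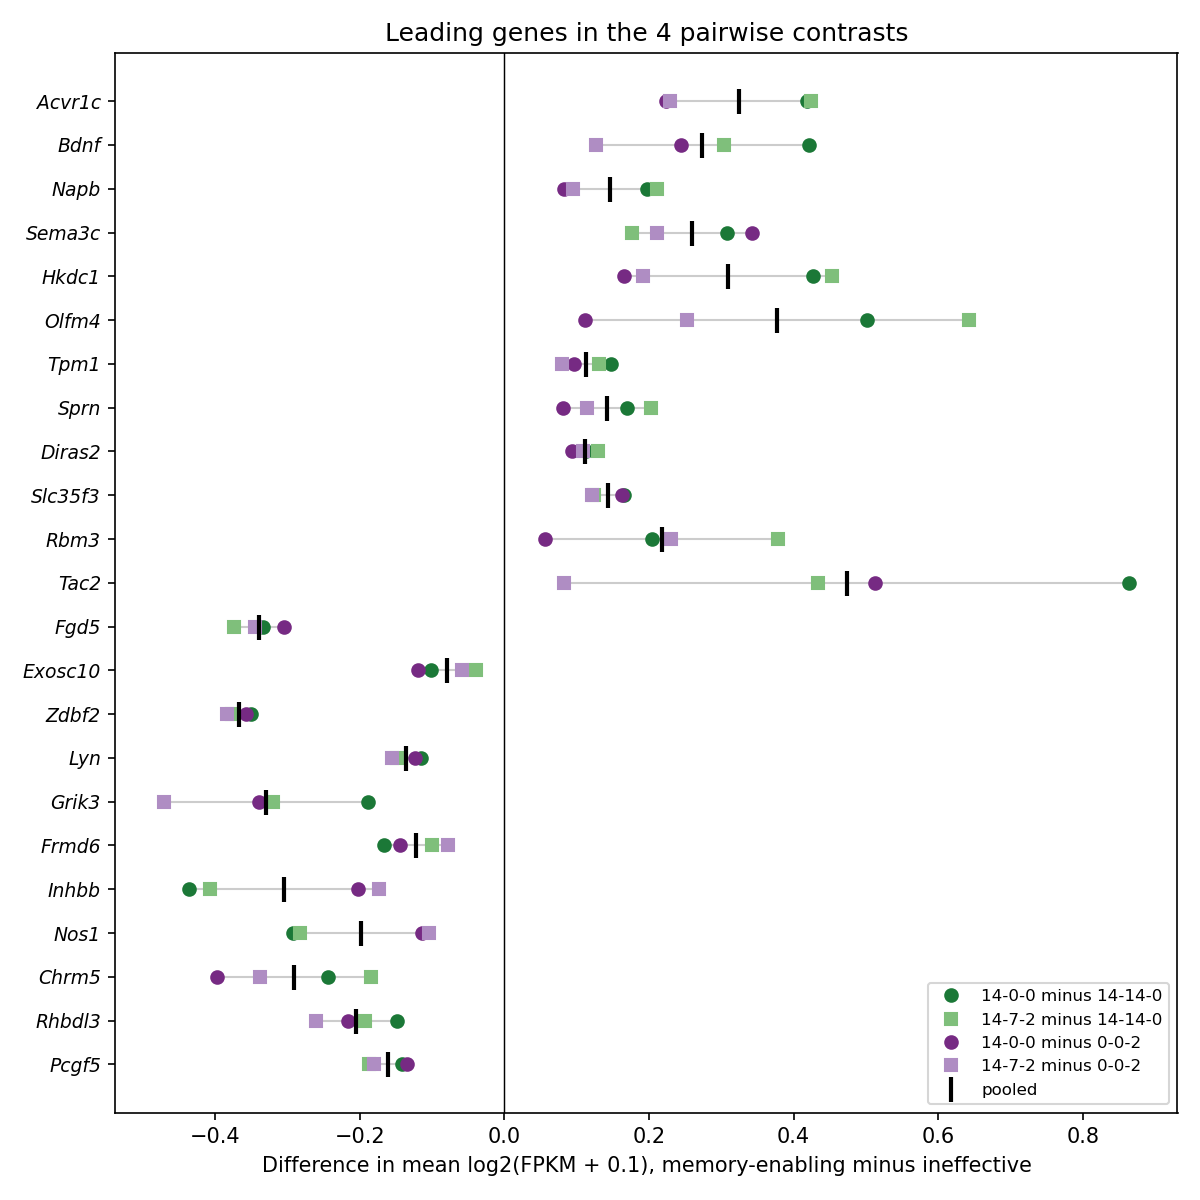
Differences in mean log2(FPKM + 0.1) of Acvr1c, Bdnf and the leading genes (y axis) in each of the 4 pairwise contrasts (points) and pooled (bar), without Snora28 and Snora52, whose differences are outside the range. All points of a gene lie on one side of 0 by the rule of choice, and for Acvr1c, Olfm4 and Hkdc1 the points against 14-14-0 lie farther from 0 than those against 0-0-2.

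Of 14 GABA-A receptor genes tested, which encode the chloride channel of fast inhibition and its scaffold, 5 were higher and none lower, against 3.11% and 1.02% of all genes, and their median difference was 0.074. Of the 14, 10 had a positive difference, and the range was from -0.20 to 0.17. Gabra4 differed by 0.17 ± 0.054 (p = 0.0031) and Gabra5 by 0.17 ± 0.061 (p = 0.0082). Gphn, the scaffold gephyrin, differed by 0.070 ± 0.030 (p = 0.025). All 5 kept a p under 0.05 without the 3 libraries. Against 0-0-2, neither schedule passed for Gabra4, Gabra5 or Gphn (p from 0.053 to 0.53), and the median score of the list was 0.063 in 0-0-2 and 0.016 in 14-7-2. Gabra4 ranged from 35.6 over 41.0 to 46.5 FPKM in 14-0-0 and from 31.0 over 42.2 to 48.5 FPKM in 14-7-2, against 26.4 over 37.4 to 41.0 FPKM in 14-14-0 and 28.3 over 37.8 to 45.1 FPKM in 0-0-2, with overlap between all schedules.

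On a list of 30 potassium channel genes, 4 were higher, none was lower and 28 had a positive difference, with a median of 0.059. Over all genes, 3.11% were called higher and 52.2% were positive. Those called on the list were Kcna4 (0.18 ± 0.068, p = 0.0099), an A-type channel, Kcnip4 (0.14 ± 0.058, p = 0.022), an accessory protein of Kv4 channels, Kcnj3 (0.13 ± 0.060, p = 0.032), a G protein-gated inward rectifier, and Kcnv1 (0.13 ± 0.061, p = 0.044), a silent subunit. Against 0-0-2, Kcna4, Kcnip4 and Kcnj3 did not pass (p from 0.20 to 0.59), and the median score of the list was 0.062 in 0-0-2 and 0.030 in 14-0-0. Without the 3 libraries, Kcna4 and Kcnj3 were still called and the median was 0.017. Of potassium channel genes outside the list, Kcns2 (0.21) and Kcnj2 (0.32) were called higher and Kcnt1 (-0.30) was called lower. Of 16 AMPA and NMDA receptor subunits 1 was called, Gria3 (0.099 ± 0.047, p = 0.042), and it was not called without the 3 libraries (0.080, p = 0.092).

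Among 19 neuropeptide genes and receptors, Tac2 and the neuropeptide Y receptors Npy2r (0.15 ± 0.060, p = 0.013) and Npy5r (0.14 ± 0.065, p = 0.035) were higher. Over all genes, 3.11% were called higher. Npy2r was also on the list of CA3 markers, where it and Iyd (0.39 ± 0.15, p = 0.014) were the 2 called of 10, against the same 3.11%. The median of that list was 0.095. CA3 scores had medians of 0.24 in 14-7-2, 0.075 in 14-14-0 and close to 0 in 14-0-0 and 0-0-2, with the highest score, 0.97, in 14-7-2 replicate 3. Without the 3 libraries Npy2r differed by 0.10 (p = 0.071). In bulk tissue, more cells of a type in the dissection and more RNA per cell cannot be told apart. Of 10 adult neurogenesis genes, Dcx, the microtubule protein of newborn neurons (0.24 ± 0.086, p = 0.0077), and Sox11, a transcription factor of immature neurons (0.17 ± 0.077, p = 0.030), were higher. That list had 2 called of 10, against 3.11% of all genes, and a median of 0.041. Dcx medians were 3.67 FPKM in 14-0-0 and 3.38 FPKM in 14-7-2 against 2.85 FPKM in 14-14-0 and 2.79 FPKM in 0-0-2. None of 12 dentate granule cell markers and none of 7 CA1 markers was called.

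Chaperones of the endoplasmic reticulum, which fold secreted and membrane proteins, had 3 calls among 20 tested, all lower, against 1.02% of all genes. Of the 20, 17 had a negative difference, and the median was -0.11. Pdia6, a disulfide isomerase, differed by -0.16 ± 0.065 (p = 0.016), Hyou1, a large Hsp70-like chaperone, by -0.12 ± 0.050 (p = 0.019) and Herpud1, a component of the degradation machinery, by -0.083 ± 0.041 (p = 0.048). Pdia6 ranged from 42.2 over 49.0 to 60.3 FPKM in 14-0-0 and from 36.9 over 44.8 to 51.4 FPKM in 14-7-2, against 40.4 over 55.5 to 73.9 FPKM in 14-14-0 and 45.4 over 51.8 to 60.6 FPKM in 0-0-2. Against 0-0-2, 14-0-0 differed by -0.017 (p = 0.80) for Pdia6, -0.047 (p = 0.49) for Hyou1 and -0.022 (p = 0.71) for Herpud1. The median score of the list was 0.083 in 14-14-0 and between -0.11 and -0.071 in the other schedules, 0-0-2 included. For Pdia6, above every memory-enabling library were 4 of the 14-14-0 libraries (replicates 0, 3, 4 and 5) and, narrowly, 0-0-2 replicate 8. Without the 3 libraries of high thalamus score only Pdia6 was called (-0.15, p = 0.024), and the median was -0.082.

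Many genes of this kind are known to carry a promoter element, the endoplasmic reticulum stress element, which is CCAAT and CCACG with 9 bases of any kind between them. In the RefSeq promoter windows of GRCm38.p6 (250 bases before to 50 after each start, both strands searched), 7 of the 17 listed chaperones with a window held it, against 0.119% of all 32851 windows. Pdia6 and Hspa5, the BiP chaperone gene, did, and Herpud1 did not. Hyou1, also called, had no window and was not searched. The 250 bases before the start are shown for Pdia6, which was called, and for Hspa5, which was not, with the 2 parts of the element in capitals. They are at chr12:17266339-17266588 and chr2:34771840-34772089, both on the plus strand. A match describes the letters and is no evidence of binding.
Pdia6: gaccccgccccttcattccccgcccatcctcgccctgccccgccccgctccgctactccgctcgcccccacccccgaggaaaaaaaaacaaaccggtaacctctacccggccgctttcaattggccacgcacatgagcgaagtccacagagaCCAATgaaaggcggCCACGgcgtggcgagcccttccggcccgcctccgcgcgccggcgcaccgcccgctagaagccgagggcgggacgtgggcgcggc
Hspa5: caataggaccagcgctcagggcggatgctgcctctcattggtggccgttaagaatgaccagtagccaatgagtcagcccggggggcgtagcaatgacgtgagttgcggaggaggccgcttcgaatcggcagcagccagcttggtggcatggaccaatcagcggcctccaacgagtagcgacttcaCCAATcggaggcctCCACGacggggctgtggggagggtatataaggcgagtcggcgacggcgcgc

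Activity-regulated genes went both ways. Of 29 immediate early genes, which neurons induce within minutes to an hour of activity, 2 were higher and 2 lower, with a median of -0.046. Over all genes, 3.11% were called higher and 1.02% lower. Ptgs2, the inducible cyclooxygenase, was higher by 0.24 ± 0.081 (p = 0.0046) and Nptx2, a secreted pentraxin that clusters AMPA receptors, by 0.19 ± 0.085 (p = 0.031). Sik1, a salt-inducible kinase (-0.30 ± 0.13, p = 0.027), and Egr1, a zinc finger transcription factor (-0.20 ± 0.090, p = 0.032), were lower. Of these 4, Ptgs2 was called without the 3 libraries (0.19, p = 0.023), and the others had p from 0.053 to 0.12. Egr1 medians were 47.0 FPKM in 14-0-0, 42.4 FPKM in 14-7-2, 48.8 FPKM in 14-14-0 and 49.7 FPKM in 0-0-2.

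Of 17 clock genes, the repressors Per2 (-0.13 ± 0.059, p = 0.034) and Bhlhe40 (-0.16 ± 0.068, p = 0.020) were lower, against 1.02% of all genes, and the median was -0.098. Per2 was lower after 14-0-0 (-0.26 and -0.18), whereas 14-7-2 differed by -0.076 and -0.0036. Both were also called without the 3 libraries. The hour at which each library was collected was not analysed here. Rbm3 was the only call among 18 heat shock and cold-inducible genes, and Slc16a1, the lactate transporter MCT1, the only one among 20 exercise-linked factors (-0.099 ± 0.043, p = 0.025). Of all genes, 3.11% were called higher and 1.02% lower. Hs3st4 (0.21 ± 0.084, p = 0.016), on the list of 8 neocortex markers, was higher, though with median-ratio scaling that list had no gene called higher and 1 lower.

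No call was made among 36 genes of mitochondrial complex I, 74 cytosolic ribosomal proteins, 27 chromatin regulators, 23 cholesterol synthesis genes and 15 glucocorticoid-responsive genes, whose medians lay between -0.0077 and 0.043. The markers of meningeal fibroblasts (12 tested, median -0.17) and of ependyma (12 tested, median -0.20) had 11 negative differences each and none called. Their part in the called genes was not tested. Markers of oligodendrocytes, their precursors, astrocytes and microglia had no call, with medians from -0.072 to 0.011.

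**Figure D4:**
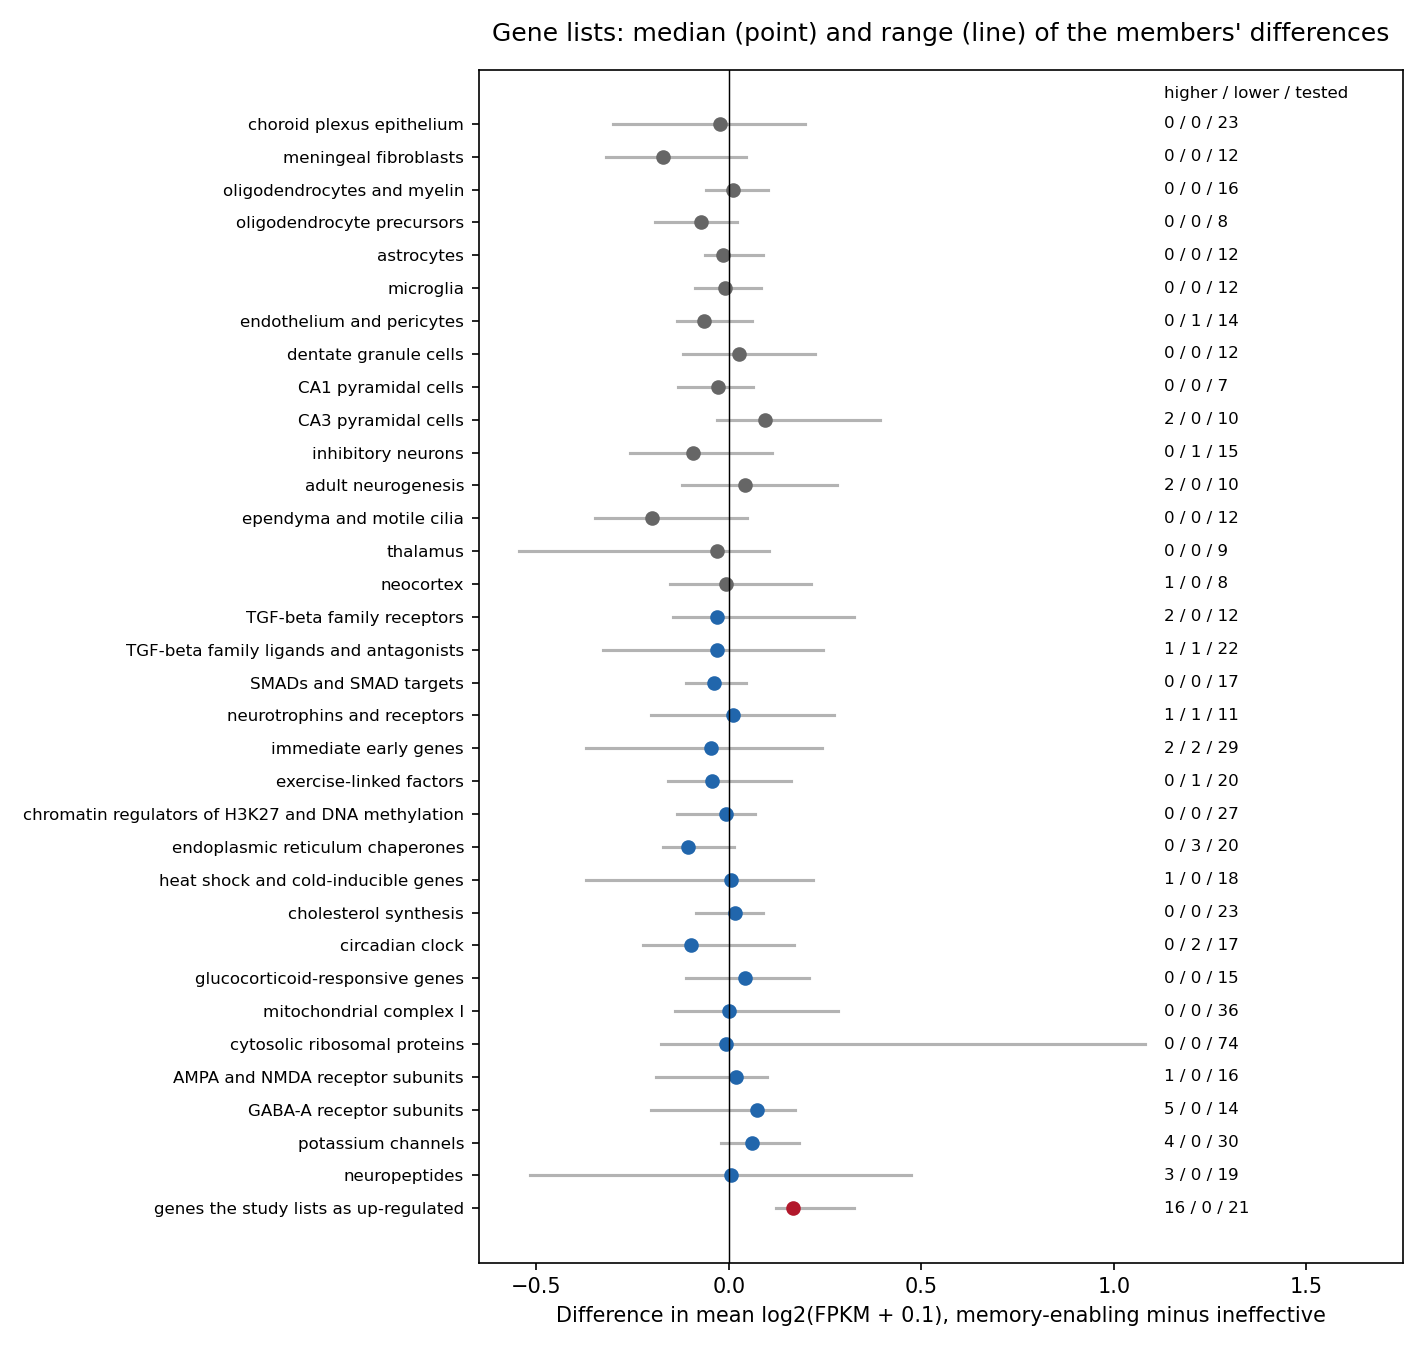
Median (point) and range (line) of the members' differences in log2(FPKM + 0.1) for each gene list (y axis), grey for cell type or region markers, blue for pathways and red for the genes that the study lists, with the numbers called higher, called lower and tested at the right. The medians of GABA-A receptor genes (5 of 14 higher) and potassium channels (4 of 30 higher) stand to the right of 0. That of endoplasmic reticulum chaperones (3 of 20 lower) stands to the left, and each of these ranges crosses 0. The median of CA3 markers (0.095) lies farther to the right, and those of meningeal fibroblasts (-0.17) and ependyma (-0.20) farther to the left.

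The 21 genes tested of the study's own list of up-regulated genes had positive differences in the pooled contrast, and 16 were called (12 without the 3 libraries). Of all genes, 3.11% were called higher. The study's list was chosen on these libraries, so its count is not independent evidence of direction. Besides Acvr1c it includes Fgf13, a sodium channel regulator (0.19 ± 0.058, p = 0.0019), Necab3 (0.26 ± 0.080, p = 0.0022), Ano3, a TMEM16 family protein (0.22 ± 0.072, p = 0.0034), and Rasgrp1, an activator of Ras (0.18 ± 0.065, p = 0.0084). Necab3 had medians of 13.7, 14.1 and 13.3 FPKM in 14-0-0, 14-7-2 and 0-0-2, and stood apart in 14-14-0 with 10.5 FPKM.

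At p under 0.05, 930 genes (7.16%) differed between 14-0-0 and 14-14-0 and 1437 (11.1%) between 14-7-2 and 14-14-0. Against 0-0-2 the counts were 203 (1.56%) and 316 (2.43%). Within a class, 773 genes (5.95%) differed between 14-0-0 and 14-7-2, and 748 (5.76%) between 14-14-0 and 0-0-2, so schedules of the same class differed in more genes than either memory-enabling schedule did from 0-0-2. No gene had an adjusted p under 0.05 in any of these 6 pairs. Pairs that share a schedule share its libraries, and the 2 pairs within a class were added after the data were seen. With 0-0-2 left out and both memory-enabling schedules set against 14-14-0, 858 genes were higher and 403 lower, and Arntl (0.33), Mylk3 (1.07), Necab3 (0.45) and Rgs4 (0.38) had adjusted p from 0.028 to 0.049. With 14-14-0 left out, 130 were higher and 106 lower.

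The 2 harvest cohorts were also compared, since each holds a full set of schedules. In cohort 1 alone 625 genes, 4.81%, were called by the same rule, and in cohort 2 alone 176, 1.35%. Of the cohort 1 calls 72.2% had the same sign in cohort 2, and of the cohort 2 calls 71% had the same sign in cohort 1, against 57.8% of all genes. The 21 genes called in both, in one direction, were 3.36% of the first list and 11.9% of the second. They were Snora28, Sema3c, Hkdc1, Tpm1, Sprn, Diras2, Rbm3, Mir22hg, Fgf13, Has3, Nrg3, Aldh1a1, Arrdc4, Pcsk2, Fam98a, Ptgs2, Snora81 and LOC100504703, all higher, and Fgd5, Grik3 and Zdbf2, all lower. Across all genes tested, Pearson's r between the cohorts' differences was 0.0091 and Spearman's rho 0.15, as a description, with genes that are not independent of each other. The choroid plexus list had a median of -0.74 in cohort 1 and 0.70 in cohort 2.

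Bdnf differed by 0.31 (p = 0.032) in cohort 1 and 0.23 (p = 0.040) in cohort 2, and Acvr1c by 0.28 (p = 0.067) and 0.37 (p = 0.0015). In cohort 1 neither had the same sign in all 4 pairs, since 14-7-2 minus 0-0-2 was -0.039 for Bdnf and -0.082 for Acvr1c, so neither is among the 21. Inhbb (-0.19 and -0.42) and Snora52 (-1.79 and -4.65) passed in cohort 2 alone, and Napb (0.21 and 0.083) and Tac2 (0.65 and 0.30) in cohort 1 alone. A test of the difference between the cohorts found 200 genes with p under 0.05, 1.54% of genes, and none after adjustment. None of these 6 genes was among them.

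**Figure D5:**
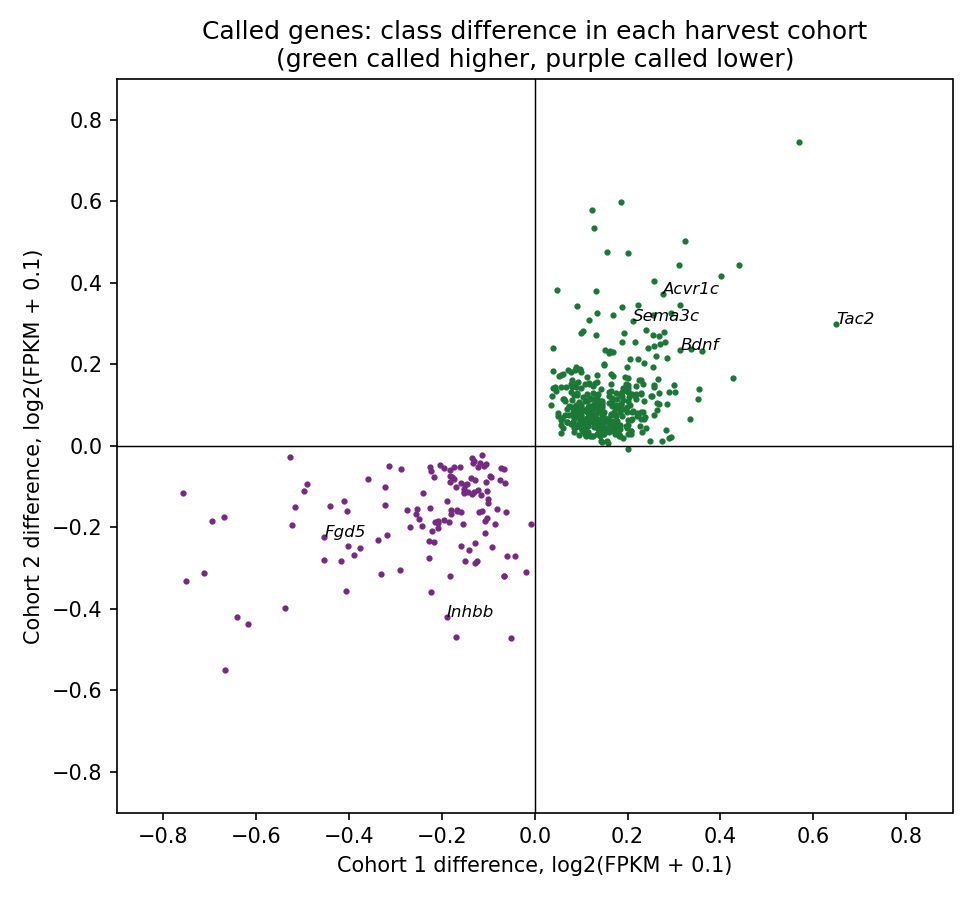
Class difference in log2(FPKM + 0.1) in cohort 1 (x axis) and cohort 2 (y axis) for the 536 called genes, green for called higher and purple for called lower, with 12 genes outside the axes. The genes were chosen on both cohorts together, so their place in 2 quadrants follows from the choice; the spread within a quadrant shows how unequal the cohorts were.

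The 3 groups that did not enter the contrast were placed on the axis between the class means. Of the 404 genes called higher, the mean of 14-7-0, a schedule with a 7-day delay and no reactivating exercise, was below the midpoint of the classes for 53%, and of the 132 called lower it was above the midpoint for 47%. Over all genes 49.4% were on the ineffective side. Without 14-7-0 replicate 4 these shares were 43.8%, 49.2% and 44%. Sedentary mice were below the midpoint for 92.6% of the genes called higher, against 67.5% of all genes on the ineffective side. Without sedentary replicate 6 these shares were 71% and 57.2%. Home cage mice, which had no acquisition, were below it for 87.6%, against 59.8% of all genes. Acvr1c averaged 4.00 FPKM in 14-7-0, 3.45 FPKM in sedentary (3.69 FPKM without replicate 6) and 3.78 FPKM in home cage mice, nearer to the ineffective than to the memory-enabling mean. Bdnf averaged 19.8 FPKM in 14-7-0, 18.2 FPKM in sedentary (20.1 FPKM without replicate 6) and 18.2 FPKM in home cage mice. Other leading genes were placed otherwise in 14-7-0: Snora28 averaged 387.7 FPKM, between 14-0-0 (458.6) and 14-7-2 (335.7), Sema3c 9.73 FPKM against 9.69 FPKM in 14-7-2, and Diras2 100.1 FPKM against 99.7 FPKM in 14-0-0 and 100.7 FPKM in 14-7-2.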

How the data were processed

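The authors aligned 50-base single reads from poly-A libraries with ELAND v2e and Bowtie (at most 2 mismatches, unique matches) and deposited FPKM values. The processing notes name Cuffnorm and mm10. Read counts were not used here, so depth is known only relatively and no counting interval is given. All 70 columns matched a sample title. Of 24346 genes, the 12994 whose average over the 70 libraries reached 1 FPKM were tested on log2(FPKM + 0.1) with limma 3.58.1 (R 4.3.3, two-sided, variance trend, no covariate), and Acvr1c and Bdnf also by 100000 permutations. Libraries are separate samples, and p-values measure the spread between them, not how the 2 schedules of a class vary. On simulated data with 12994 genes, 79 of 100 differences of 0.2 and 96 of 100 of 0.5 (log2) were called, as were 4.89% of unchanged genes. After adjustment 41 and 88 of 100 passed. The simulated noise was normal and independent between genes, and both memory-enabling schedules had the same shift. It held no outlying libraries and no differences within a class, so these shares may not hold for the real data.

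Named genes were Acvr1c, Bdnf, the 12 of smallest p called in each direction, those called in all 4 pairs, up to 4 called genes of each list and the family's receptors; Gphn, Eif5, Rplp2, further listed genes, those of large size and those called in both cohorts were added after their values were seen. Schedules and lists were chosen with earlier results of these data known. Gene coordinates are RefSeq's (GRCm38.p6) and those of Snora28 and Snora52 GENCODE M21's (GRCm38). Figures used matplotlib 3.10.9 (Python 3.11.15). Some called genes of the lists are not reported here.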

Additional observations from a re-analysis of the deposited data

Results flagged for a closer look

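In each schedule of 10 libraries, the gap of the highest or lowest library to its neighbour was set against the range. Over 100 gene and schedule pairs 13 held a library apart, and over 36 pairs of marker score and schedule 7 did, where chance flags about 1 in 20. The low libraries were 14-14-0 replicate 3 for Acvr1c (2.08 FPKM), Bdnf (12.4 FPKM) and Sprn (72.4 FPKM), 0-0-2 replicate 8 for Sema3c (4.74 FPKM) and 14-14-0 replicate 8 for Snora52 (listed at 0 FPKM). The high libraries were 14-0-0 replicate 1 for Olfm4 (5.53 FPKM), 14-7-2 replicate 4 for Tac2 (9.61 FPKM), 0-0-2 replicate 8 for Tac2 (10 FPKM) and Chrm5 (3.14 FPKM), 14-14-0 replicate 3 for Fgd5 (2.49 FPKM), 0-0-2 replicate 4 for Fgd5 (4.58 FPKM) and Pcgf5 (6.09 FPKM), and 14-14-0 replicate 2 for Inhbb (2.43 FPKM).

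Among marker scores, choroid plexus stood apart in 14-7-2 replicate 9 (2.79) and 0-0-2 replicate 9 (3.93), thalamus in 14-7-2 replicate 3 (1.93) and CA3 in 14-0-0 replicate 8 (0.283). Scores were low in 14-14-0 replicate 3 for CA1 (-0.901) and dentate granule cells (-0.82), and in 14-14-0 replicate 1 for inhibitory neurons (-0.437). These marker differences were not tested as a source of the gene differences beyond the fits without the 3 libraries and with the thalamus or choroid plexus score.

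The class difference of Slc16a1 differed between the harvest cohorts (interaction p = 0.03, unadjusted, 1 of 66 called genes so tested): it was -0.0079 in cohort 1 and -0.19 in cohort 2.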

How the results depend on the processing

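No gene had an adjusted p under 0.05 under any setting except Cyber-T on log2 values (1 gene, Snora28) and 0-0-2 left out (4). Counts are given as higher and lower. Within 1.5 times of 404 and 132 were a pseudocount of 1, a minimum mean of 0.1 FPKM, both scalings, a fit of the 4 schedule means, harvest cohort or thalamus score as covariate, cohort 1 alone and 14-7-2 left out. Outside it were a minimum mean of 5 FPKM (66 lower), no filter (274 lower), the replicate block (209 lower), the choroid plexus score (206 lower), 14-0-0 left out (331 lower), 14-14-0 left out (130 higher), 0-0-2 left out (858 and 403), 7 group means (193 higher), Cyber-T on log2 values (197 higher) and on FPKM (194 higher), cohort 2 alone (121 and 55), p under 0.01 (100 and 16) and the 3 libraries of high thalamus score left out (260 and 78). The cause was not tested.

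Genes called in all 4 pairs, 1 in the report, were 2 with a pseudocount of 1, a minimum mean of 0.1 FPKM, the replicate block, the choroid plexus score, cohort 2 alone or the 3 libraries left out, 3 with median-ratio scaling, 6 with no filter, and 0 in cohort 1 alone and at p under 0.01. Genes that differed between cohorts, 200 in the report, were 130 at a minimum mean of 5 FPKM, 472 with no filter, 20 at p under 0.01, 122 without the 3 libraries, and 568, 1370 and 572 with 14-0-0, 14-7-2 and 0-0-2 left out. In cohort 1 alone, Acvr1c (0.28) and Bdnf (0.31) lost their calls. For both, 14-7-2 minus 0-0-2 was negative, and Acvr1c also missed the threshold in limma (p = 0.067). Bdnf also lost its call in the fit of 7 groups (0.27), with 14-0-0 left out (0.22) and with 14-14-0 left out (0.19).

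Leaving out 1 library at a time gave 317 (without 0-0-2 replicate 8) to 606 (without 14-0-0 replicate 5) genes higher, 87 (without 0-0-2 replicate 4) to 197 (without 0-0-2 replicate 9) lower, always 0 adjusted, 1 to 9 in all 4 pairs (9 without 0-0-2 replicate 3), 136 (without 14-0-0 replicate 7) to 333 (without 14-7-2 replicate 9) differing between cohorts, and differences of 0.28 to 0.35 for Acvr1c and 0.23 to 0.31 for Bdnf, all called. Replicate numbers pair libraries by number only: of 60 pairs of libraries with the same number in different schedules, 26 had a correlation of deviations over 0.1 (median 0.076), and 8 of 40 libraries matched their own number best. The replicate block gave 500 genes higher and 209 lower and left Acvr1c (0.32, p = 0.0012) and Bdnf (0.27, p = 0.0068) called. Acvr1c, Bdnf and the 64 other called genes refitted under each setting kept their sign. With a schedule left out, that sign follows from the rule of choice. Many of the 64 lost their call: 39 with 14-14-0 left out, 36 in cohort 2 alone and 33 with 14-7-2 left out. In the fit of 7 groups 30 did, in cohort 1 alone 29, and with the 4 schedule means none. With 1 library left out at a time, Herpud1 lost its call in 25 of 40 fits, Gria3 in 19 and Kcnv1 in 18. Sema3c and Snora28 lost theirs in none. Genes named only for their size or for calls in both cohorts were not refitted. Called genes were 75.4% higher, and 54.3% to 86.2% over the settings. Depth is known only relatively, so its effect on low genes could not be set.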
